A study of Rattus norvegicus with 4 samples.

Results

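The genes described here are 9 mechanosensitive and contractile genes of the rat: Ccn1, Ccn2, Ankrd1, Thbs1, Myl9, Acta2, Tagln, Tpm1 and Piezo1. They were taken by symbol from the 30560 gene rows of the matrices, and each of the 9 had 1 row. Cells were divided by marker genes into stromal, mural, endothelial, macrophage, T cell and epithelial gates, and none of the 9 genes was used for a gate. Mural cells are the pericytes and smooth muscle cells that wrap blood vessels.

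Stretch and stiffness reach the genome by several routes. In one, the coactivators YAP and TAZ enter the nucleus and bind TEAD factors at genes such as Ccn1, Ccn2 and Ankrd1. In another, actin polymerisation releases the MRTF coactivators, which bind serum response factor (SRF) at genes of the smooth muscle apparatus. Piezo1 is a membrane channel that opens under tension and admits calcium. Acupuncture needles deform fascia, and fascia fibroblasts are known to respond to stretch.

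Single-cell RNA was measured in 4 droplet libraries of the abdominal midline fascia, labelled as subcutaneous fascia. The 2 acupuncture libraries came from rats with Salmonella-induced dysentery that were then treated by acupuncture, and the 2 dysentery libraries from rats with the same induced dysentery without it. All groups thus carried the infection, and no healthy group was analysed here. Strain, age and sex of the rats are not given in the sources used here. The groups follow the library titles, and the treatment field of every library names the opposite group, so every sign given here is turned round should that field be the true one. Whether each library is its own animal is not stated, and p-values therefore reflect library-to-library spread alone, which may be technical.

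The acupuncture libraries held 70499776 and 93897006 unique molecular identifiers (UMIs, each one captured transcript molecule), and the dysentery libraries 53066666 and 79461544. Filtering kept 7704 and 8567 acupuncture cells and 6310 and 9816 dysentery cells. Dysentery library 1 stood apart in quality, with 16.0% of its cells over the mitochondrial limit, against 5.11% to 7.17% in the other libraries. Pairs of libraries shared 19 to 32 cell barcodes, at most 0.36% of the smaller library. The stromal gate held 3332 and 2834 acupuncture cells and 2177 and 4693 dysentery cells. The endothelial gate held 131 and 190 acupuncture cells and 54 and 84 dysentery cells. The mural gate was small, with 17 and 14 acupuncture cells and 3 and 4 dysentery cells. Levels are given as CPM, the UMIs of a gene scaled to a gate total of 1000000. The 3' chemistry counts transcript ends, so levels of different genes are set side by side without a length correction.

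The promoters of Ccn1, Ccn2 and Acta2 are shown because the first pair moved in opposite directions in stromal cells and the third marks the contractile group. Each run is the 250 bases before the annotated transcription start, 5′ to 3′ on the gene's strand, from RefSeq on the build GRCr8. Capitals mark the TEAD core, GGAATG or its reverse complement CATTCC. The Ccn1 run lies at chr2:237225690-237225939, the Ccn2 run at chr1:22624615-22624864 and the Acta2 run at chr1:241172504-241172753, all on the minus strand.
Ccn1: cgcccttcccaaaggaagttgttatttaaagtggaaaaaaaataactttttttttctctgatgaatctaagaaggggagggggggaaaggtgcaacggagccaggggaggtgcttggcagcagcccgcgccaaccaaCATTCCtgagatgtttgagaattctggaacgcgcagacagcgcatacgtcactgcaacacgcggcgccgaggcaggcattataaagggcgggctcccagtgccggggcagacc
Ccn2: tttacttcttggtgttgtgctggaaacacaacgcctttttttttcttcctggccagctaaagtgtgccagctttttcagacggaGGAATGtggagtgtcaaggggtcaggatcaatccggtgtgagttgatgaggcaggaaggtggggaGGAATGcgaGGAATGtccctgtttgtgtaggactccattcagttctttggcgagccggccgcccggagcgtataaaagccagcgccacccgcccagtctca
Acta2: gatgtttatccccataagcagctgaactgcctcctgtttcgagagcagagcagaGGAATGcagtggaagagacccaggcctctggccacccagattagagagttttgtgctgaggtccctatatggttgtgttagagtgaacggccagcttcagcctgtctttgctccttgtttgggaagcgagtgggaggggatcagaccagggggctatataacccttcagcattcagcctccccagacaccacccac
The Ccn2 run held 3 TEAD cores, 166, 101 and 92 bases before the start, and the Ccn1 run held 1, 113 bases before it. Acta2 also held 1 core, 196 bases before its start. Of 33469 promoters of the same length, 12.06% held at least 1 core on either strand, and 0.0807% held 3 or more. Thbs1 and Tpm1, the other members with an entry, held 1 core each. The AP-1 motif TGANTCA had no match in these 5 runs and occurred in 6.34% of all promoters. The strict CArG box, a form of the sequence bound by SRF with only A or T between CC and GG, had none either. It occurred in 1.497% of all promoters. Forms with 1 base changed were not searched for, and the Acta2 run holds such forms, ccctatatgg and ccttgtttgg. The lack of a strict match therefore does not show a lack of SRF sites. A match is a match of letters, not a measured binding site. Ankrd1, Myl9, Tagln and Piezo1 were named only.

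The members fell into different cell types. Acta2 (smooth muscle actin), Tagln (transgelin, an actin-bundling protein) and Myl9 (the regulatory light chain of smooth muscle myosin) were highest in the mural gate in every library. Ccn1, a secreted matricellular protein, was high in both mural and stromal cells. Ccn2, its close relative also called connective tissue growth factor, and Piezo1 were highest in the endothelial gate on average.

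Acta2 had 3708 and 2145 CPM in the mural gate of the acupuncture libraries and 3538 and 5268 CPM in that of the dysentery libraries. Tagln had 8184 and 3847 CPM in acupuncture mural cells and 6922 and 12619 CPM in dysentery mural cells. Myl9 had 2762 and 1480 CPM in acupuncture mural cells and 1500 and 3089 CPM in dysentery mural cells. Few cells carried some of these sums. In dysentery library 1 the highest mural cell for each gene held 180 of 180 Tagln, 87 of 92 Acta2 and 37 of 39 Myl9 UMIs. In acupuncture library 2, 97.9% of mural Tagln UMIs lay in the 5 highest of 14 cells. The groups overlapped for all 3 genes, and acupuncture library 2 was the lowest for each. Of its 14 mural cells, 9 had no UMI of Myh11 (smooth muscle myosin), against 2 of 17 in acupuncture library 1, 0 of 3 in dysentery library 1 and 0 of 4 in dysentery library 2. Their part in the lower levels was not tested. Myh11, which was not used for the gate, had 1854 and 1049 CPM in acupuncture mural cells and 3730 and 4526 CPM in dysentery mural cells. In stromal cells it had between 0.834 and 2.78 CPM, so this marker was where the gate's name puts it.

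Stromal cells held far lower levels of these 3 genes, between 0.144 and 9.27 CPM. Acta2 had 1.92 and 0.610 CPM in acupuncture stromal cells and 1.22 and 0.144 CPM in dysentery stromal cells. The T cell gate, which should lack smooth muscle actin, had 0.885 and 0.426 CPM with acupuncture and 0.296 and 0 CPM without. The stromal range thus overlapped that of T cells. The epithelial gate, which can hold the contractile myoepithelial cells of glands, had 274 and 118 CPM of Acta2 with acupuncture and 78.5 and 0 CPM without, over 7 to 40 cells a library.

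Tpm1, a tropomyosin of muscle and non-muscle cells, was the broadest contractile member. Tpm1 had 3196 and 2623 CPM in acupuncture mural cells and 2346 and 3855 CPM in dysentery mural cells. In the endothelial gate it had 212 and 192 CPM with acupuncture and 124 and 144 CPM without, and in the stromal gate 91.5 and 71.7 CPM with acupuncture and 74.1 and 55.1 CPM without. Every one of these values lay above the 10.2 to 19.0 CPM of the macrophage and T cell gates.

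The gates were compared in 1 edgeR quasi-likelihood fit with library as a block, Benjamini-Hochberg adjusted over 7067 genes. Between mural and stromal cells 30.1% of genes were called at an adjusted p under 0.05. Acta2, Tagln, Myl9, Thbs1 and Tpm1 were called higher in mural cells, 5 of the 8 members tested, where 10.8% of all genes were. Of these, Acta2, Tagln, Myl9 and Thbs1 passed the filter on low counts only through the mural sums. Their calls therefore give no independent support, and the count of members is a description only. The log2 difference, mural minus stromal, was 11.49 ± 0.56 (SE) for Acta2 with an edgeR adjusted p of 1.6e-13. It was 11.64 ± 0.67 for Tagln, 8.91 ± 0.41 for Myl9, 5.51 ± 0.35 for Thbs1 and 4.79 ± 0.26 for Tpm1. Ccn1 had 1346 and 694 CPM in dysentery mural cells, against 195 and 220 CPM in dysentery stromal cells. With acupuncture it had 1707 and 1166 CPM in mural cells and 878 and 1027 CPM in stromal cells. Over both groups its log2 difference was 0.75 ± 0.29 with an edgeR adjusted p of 0.055, so the levels were not separated by this test. Without acupuncture library 2 it was at 1.16 with an edgeR adjusted p of 0.00552. Ccn2 was at -0.41 ± 0.65 and Piezo1 at -0.45 ± 0.58, with edgeR adjusted p-values of 0.697 and 0.643. The mural sums rest on 3 to 17 cells a library. When the mural gate asked for 2 markers rather than 3, a choice made after seeing the data, Ccn2 turned to 1.64 with an edgeR adjusted p of 0.00954.

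Between endothelial and stromal cells 49.3% of genes were called. Of the members, 6 were called higher in endothelial cells, where 22.5% of all genes were, and Ccn1 was called lower, where 26.8% were. Piezo1 differed by 1.53 ± 0.20 log2 units and Ccn2 by 1.55 ± 0.26, with edgeR adjusted p-values of 4.8e-07 and 2.7e-05. Thbs1, encoding the matricellular protein thrombospondin-1, was 2.03 ± 0.34 higher, and Tpm1 was 0.96 ± 0.23 higher. Tagln was 3.28 ± 0.60 higher and Acta2 2.39 ± 0.80 higher, on 64 and 14 endothelial UMIs in all, the 14 of Acta2 all from acupuncture libraries. The Acta2 call was lost without acupuncture library 1 (edgeR adjusted p 0.0584), without acupuncture library 2 (0.204), at the mitochondrial limit of 10% (0.202) and with a mural gate of 2 markers (0.157). The Tpm1 call was lost with 1 marker fewer in each gate (edgeR adjusted p 0.0574). Ccn1 was at -0.9996 ± 0.279, with an edgeR adjusted p of 0.00447, and the call was narrowly lost when either acupuncture library was left out. This contrast averages over both groups. Ccn1 had 363 and 401 CPM in acupuncture endothelial cells and 878 and 1027 CPM in acupuncture stromal cells. In the dysentery libraries it had 200 and 187 CPM in endothelial and 195 and 220 CPM in stromal cells, so the gap lay in the acupuncture libraries. Between mural and endothelial cells 26.8% of genes were called, with 6 members called higher in mural cells, where 11.4% of all genes were. Among these 6, Acta2, Tagln, Myl9 and Thbs1 were again in the fit only through the mural sums. The other 2 members tested, Ccn2 and Piezo1, were called lower, where 15.4% were, at -1.96 ± 0.58 and -1.98 ± 0.51. The Ccn2 call rests on 11 mural UMIs and was lost when mural cells asked for 2 markers, with a log2 difference of -0.11. Without acupuncture library 2 its edgeR adjusted p was 0.09.

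**Figure D1:**
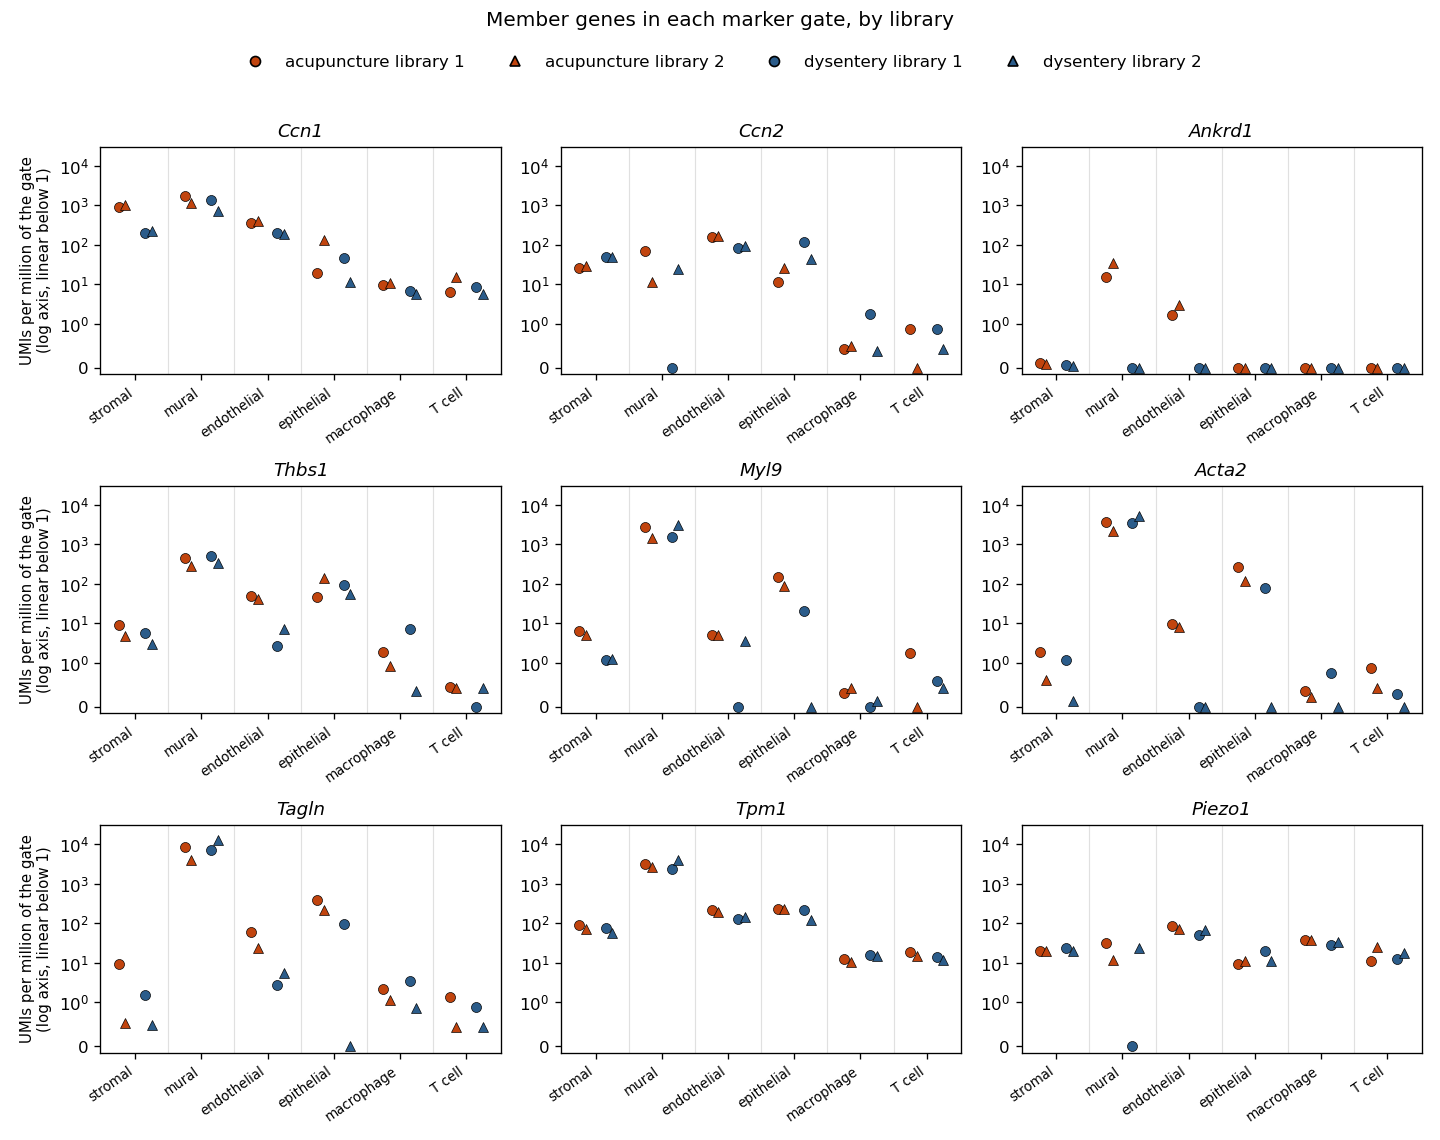
Level of each member, in CPM (vertical axis, logarithmic above 1 and linear below), in 6 marker gates (horizontal axis) for the acupuncture libraries (left, orange-red) and dysentery libraries (right, blue) of each gate. Each point is 1 library. Acta2, Tagln and Myl9 stand above 1000 CPM in the mural gate and at or under 9.27 CPM in the stromal gate, and the acupuncture Ccn1 points stand above the dysentery ones in the stromal gate.

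The gates did not hold all of the contractile signal. The mural gate carried 39.1% of all Acta2 UMIs in kept cells, 33.0% of Tagln UMIs and 29.4% of Myl9 UMIs. The stromal gate, with many more cells, carried 19.1% of Myl9 UMIs. Cells that met no lineage test carried 26.3% of Acta2 UMIs, 36.3% of Tagln UMIs and 22.9% of Myl9 UMIs. The stromal gate also carried 87.1% of Ccn1 UMIs, 76.7% of Ccn2 UMIs and 58.5% of Tpm1 UMIs. Piezo1 was spread over the tissue, with 36.2% of its UMIs in the stromal gate and 31.5% in macrophages.

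In stromal cells, Ccn1 was higher and Ccn2 lower with acupuncture. Ccn1 had 878 and 1027 CPM in the acupuncture libraries, against 195 and 220 CPM in the dysentery libraries. The groups did not overlap, and the sums rest on 25092 and 33631 Ccn1 UMIs with acupuncture and 3363 and 7661 without. The share of all genes without overlap was not counted. With so few libraries a group it can be large, so non-overlap is given here and below as a description only. The log2 difference, acupuncture minus dysentery, was 2.21 ± 0.18, with an edgeR adjusted p of 0.00743 over 13014 genes. Of those genes, 2.84% were called, 1.94% higher and 0.899% lower, and of the 8 members that passed the filter on low counts Ccn1, Myl9 and Ccn2 were called. Leaving out any 1 library kept the Ccn1 call.

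Ccn2 went the other way. It had 25.3 and 28.4 CPM in acupuncture stromal cells and 50.1 and 49.4 CPM in dysentery stromal cells, with no overlap. The log2 difference was -0.88 ± 0.14, with an edgeR adjusted p of 0.0346. That call was narrow: the edgeR adjusted p was 0.0768 without acupuncture library 1, 0.0532 without dysentery library 1 and 0.0746 without dysentery library 2, at log2 differences of -0.72 to -0.90. With 1 marker fewer in each gate it was 0.0841. Stromal cells therefore held 34.7 and 36.2 Ccn1 UMIs per Ccn2 UMI with acupuncture, against 3.89 and 4.46 without.

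Ccn1 and Ccn2 were also counted as shares of stromal cells, after every cell was thinned to 2000 UMIs to even out depth. A Ccn1 UMI was found in 40.3% (95% Clopper-Pearson interval 38.6 to 42.1) and 52.2% (50.3 to 54.1) of acupuncture cells, and in 25.9% (24.0 to 27.9) and 28.7% (27.4 to 30.1) of dysentery cells. T cells, taken as the background, gave 1.22% and 1.08% with acupuncture and 1.41% and 1.51% without. Ccn2 was found in 3.48% and 3.16% of acupuncture stromal cells and in 5.78% and 5.03% of dysentery stromal cells, against at most 0.306% of acupuncture and 0.404% of dysentery T cells. Both genes thus moved in the share of cells as they did in the summed level. The shallower cells left out numbered 196 and 114 with acupuncture and 170 and 216 without. Without thinning, the Ccn1 shares were 53.9% and 68.9% with acupuncture and 48.8% and 53.3% without. Median depths of stromal cells were 8055.5 and 11120 UMIs in the acupuncture libraries and 7787 and 7246 in the dysentery libraries. For T cells they were 5377.5 and 5718 UMIs in the acupuncture libraries and 5323 and 4934 in the dysentery libraries.

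Ccn2 was also counted in stromal cells with and without Ccn1. With acupuncture, Ccn2 was found in 2.92% and 3.31% of thinned cells that had a Ccn1 UMI, and in 3.85% and 3.0% of those that had none. Without it, the shares were 5.19% and 4.67% beside Ccn1 and 5.99% and 5.17% apart from it. The gaps were small and of either sign, and they were not tested.

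**Figure D2:**
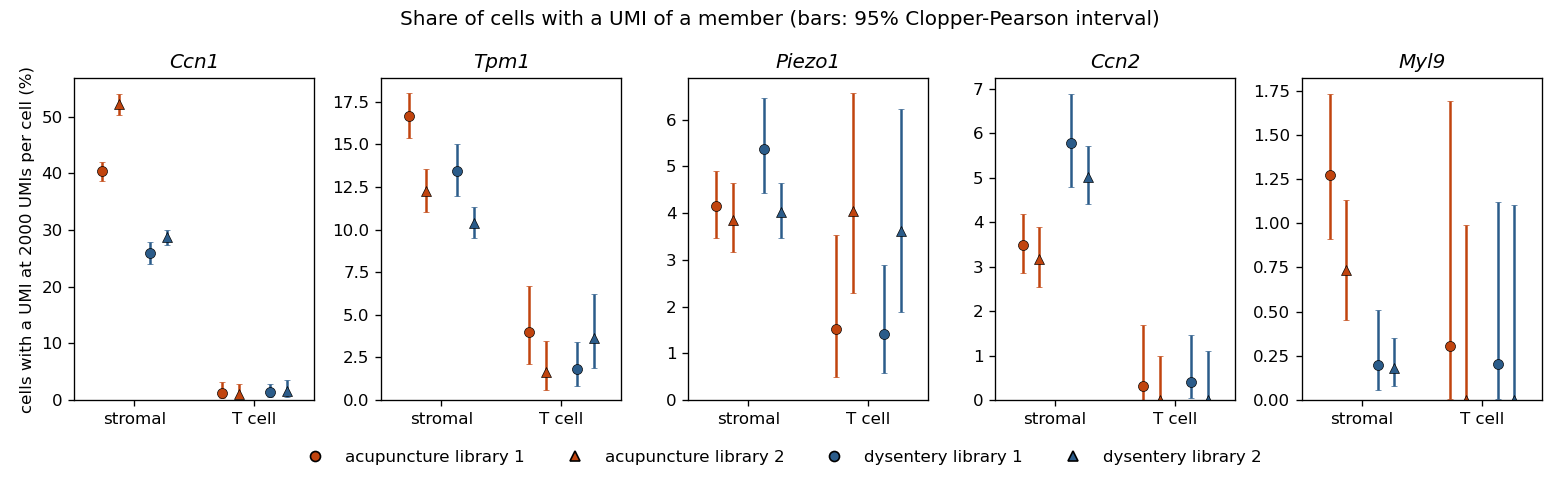
Share of stromal and T cells with at least 1 UMI of a member after thinning to 2000 UMIs a cell (vertical axis, percent, a scale of its own per gene), with 95% Clopper-Pearson intervals that cover counting error only. Acupuncture libraries (orange-red) are left of dysentery libraries (blue); the stromal Ccn1 shares are 40.3% and 52.2% with acupuncture and 25.9% and 28.7% without, while the T cell Ccn1 shares are 1.51% or less.

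Cd34, a surface protein of fascia stromal cells, gave a further division. A Cd34 UMI was found in 1584 of 3332 and 1400 of 2834 acupuncture stromal cells. In the dysentery libraries it was found in 799 of 2177 and 1727 of 4693. Among stromal cells with a Cd34 UMI, Ccn1 averaged 1026 ± 76.1 CPM in acupuncture libraries and 215 ± 12.9 CPM in dysentery libraries (SD, n = 2 each). Among those with none it averaged 853 ± 138 CPM with acupuncture and 202 ± 22.6 CPM without. In both subsets, which were fitted after seeing the data, the edgeR call of Ccn1 held. Ccn2 averaged 20.0 ± 1.19 CPM with acupuncture and 28.5 ± 2.28 CPM without in cells with a Cd34 UMI. In cells with none it averaged 36.2 ± 4.16 CPM with acupuncture and 66.5 ± 3.98 CPM without. Its log2 difference was -0.51 with an edgeR adjusted p of 0.15 in cells with a Cd34 UMI, and -0.87 with an edgeR adjusted p of 0.0325 in cells with none. Within the Cd34 cells, those that also had a Ptgs2 UMI held 1681 and 1409 CPM of Ccn1 with acupuncture and 309 and 260 CPM without. Those with no Ptgs2 UMI held 487 and 497 CPM with acupuncture and 181 and 205 CPM without. For Ccn2, the Cd34 cells with a Ptgs2 UMI held 8.37 and 17.0 CPM with acupuncture and 15.5 and 15.4 CPM without. The groups thus overlapped for Ccn2 in these cells. In Cd34 cells with no Ptgs2 UMI, Ccn2 had 26.6 and 27.7 CPM with acupuncture and 29.6 and 37.7 CPM without.

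Ccn1 is also an early response gene, one that cells transcribe soon after a stimulus, and such genes are known to rise also during tissue digestion. Of 15 early response genes tested in stromal cells, 13 were called higher and 0 lower, with a median log2 difference of 2.09 against -0.0019 over all genes. Atf3, a stress-induced transcription factor, was 4.56 higher and Egr1, a zinc finger factor bound to growth signals, 3.22 higher. Egr2 was 3.07 higher and Jun, a subunit of AP-1, 2.66 higher. The summed level of the list was 15966 and 18935 CPM in acupuncture stromal cells and 4298 and 5694 CPM in dysentery stromal cells, with none of its genes at 0 in any library. Its part in the Ccn1 result was not tested.

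Of 23 genes of the wider YAP/TEAD list tested in stromal cells, 2 were called higher and 1 lower, where 2.84% of all genes were called in either direction, and the median was 0.19. Both Ccn1 and Ccn2 are among the called. Gadd45a, a stress-induced gene that halts the cell cycle, was the other target called higher, at 2.68 ± 0.13 with an edgeR adjusted p of 0.0012. It had 213 and 168 CPM with acupuncture and 32.8 and 27.0 CPM without. Amotl2, a YAP-binding protein and target, was at 0.72 with an edgeR adjusted p of 0.0877. Of 14 Hippo pathway parts tested, 0 were called: Yap1 was at 0.10, Wwtr1 (TAZ) at 0.26 and the TEAD factor Tead1 at -0.18.

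Thbs1 and Ankrd1 completed the YAP/TEAD members. Thbs1 had 8.99 and 4.88 CPM in acupuncture stromal cells and 5.85 and 3.08 CPM in dysentery stromal cells. The groups overlapped, and the log2 difference of 0.66 ± 0.37 had an edgeR adjusted p of 0.362. Ankrd1, a nuclear ankyrin repeat protein of stretched muscle, had 3 UMIs in each acupuncture stromal sum and 1 in each dysentery stromal sum. It had 34 UMIs over all kept cells and did not pass the filter on low counts in any gate. With no filter its difference with acupuncture had an edgeR adjusted p of 0.707 in stromal and 0.814 in endothelial cells.

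Among the contractile members, Myl9 was called in stromal cells. It had 6.58 and 5.19 CPM in the acupuncture libraries and 1.16 and 1.27 CPM in the dysentery libraries. The groups did not overlap, and the UMIs numbered 188 and 170 with acupuncture and 20 and 44 without. The log2 difference was 2.26 ± 0.23, with an edgeR adjusted p of 0.0111, and the call held without any 1 library. At 2000 UMIs a cell, 1.28% and 0.735% of acupuncture cells and 0.199% and 0.179% of dysentery cells had a UMI. T cells reached up to 0.306% with acupuncture and up to 0.202% without, so the dysentery stromal shares were at the background.

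Tagln, Acta2 and Tpm1 did not pass in stromal cells. Tagln had 9.27 and 0.519 CPM with acupuncture and 1.51 and 0.489 CPM without, and acupuncture library 1 stood far above the rest. In that library 27 of 3332 stromal cells carried its 265 UMIs, 102 of them in 1 cell and 89.8% in the 5 highest cells. The log2 difference was 2.35 ± 1.21 with an edgeR adjusted p of 0.333, and it turned to -0.78 without acupuncture library 1. Acta2 was at 1.04 ± 0.95 with an edgeR adjusted p of 0.589. Tpm1 was at 0.35 ± 0.15 with an edgeR adjusted p of 0.261, and its groups overlapped.

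The wider contractile and actin list had 1 gene called higher, Myl9, and 0 called lower among 27 tested in stromal cells, at a median of 0.23. Of 9 SRF/MRTF regulators and targets, 0 were called, with Srf at 0.47 and an edgeR adjusted p of 0.157. Markers of neighbouring muscle were measured beside these results. The mural marker list summed to 138 and 132 CPM in acupuncture stromal cells and 144 and 92.3 CPM in dysentery stromal cells, with 0 of 5 tested genes called and Notch3 at 0 in all 4 sums. Skeletal muscle markers summed to 39.9 and 36.3 CPM with acupuncture and 40.8 and 45.4 CPM without. One of their 6 tested genes, the skeletal actin Acta1, was called at 3.96, on 36 and 61 UMIs in acupuncture sums and 2 and 3 in dysentery sums. Acta1 thus passed the filter only through the acupuncture libraries. These sums exceed the Myl9 level itself, but not all genes of the lists were specific to muscle here. Of 7 mural markers in the fit that compared gates, 6 were called higher in mural than stromal cells. Of the called, Rgs5, Kcnj8, Cspg4 and Mcam belong to the mural panel, so the gating itself favoured their calls. Des and Myh11 are not in the panel. The marker not called, Abcc9, also a panel gene, was at 0.16 log2 units with an edgeR adjusted p of 0.757. The skeletal marker tested there, Tnnt3, had no UMI in any mural sum. Its log2 difference, mural minus stromal, was -11.3 ± 2.71, so it was higher in stromal cells. With a mural count of 0, the size of that value is not a measured fold difference. The part of these cell types in the Myl9 result was not tested.

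Piezo1 had 19.9 and 19.5 CPM in acupuncture stromal cells and 23.1 and 19.2 CPM in dysentery stromal cells. The ranges overlapped, and the log2 difference of -0.09 ± 0.12 had an edgeR adjusted p of 0.742. At 2000 UMIs a cell it was found in 4.15% and 3.86% of acupuncture stromal cells and in 5.38% and 4.02% of dysentery stromal cells. The T cell shares were 1.53% and 4.04% with acupuncture and 1.41% and 3.61% without, so the ranges of the cell types overlapped within the acupuncture libraries. Of 9 mechanically gated channels tested, 0 were called higher and 1 lower, Tmem63a, a channel opened by osmotic swelling, at -0.78 with an edgeR adjusted p of 0.0468. Of 18 integrin and focal adhesion genes tested, 0 were called.

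In endothelial cells, which line the vessels, Ccn1 was called higher with acupuncture. Thbs1 was called higher too, but it passed the filter only through the acupuncture libraries, so its call gives no independent support. Of 6198 genes tested, 1.31% were called, 0.887% higher and 0.419% lower, and 6 members passed the filter. Ccn1 had 363 and 401 CPM in acupuncture endothelial cells, against 200 and 187 CPM in dysentery endothelial cells, with no overlap. Few cells carried much of these sums. The 5 highest cells held 54.8% and 26.7% of the Ccn1 UMIs with acupuncture and 78.4% and 58.1% without. Before thinning, a Ccn1 UMI was found in 42 of 131 and 82 of 190 acupuncture cells and in 18 of 54 and 22 of 84 dysentery cells. The log2 difference was 0.89 ± 0.18 with an edgeR adjusted p of 0.0428. That p was 0.0696 without acupuncture library 2, 0.259 without dysentery library 1 and 0.262 without dysentery library 2, 0.126 with doublets kept and 0.103 with 1 marker fewer in each gate.

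Thbs1 had 48.1 and 42.0 CPM in acupuncture endothelial cells and 2.70 and 7.13 CPM in dysentery endothelial cells. These are 29 and 42 UMIs in the acupuncture sums and 1 and 4 in the dysentery sums, so Thbs1 passed the filter through the acupuncture libraries. In acupuncture library 1 its UMIs lay in 6 cells and in acupuncture library 2 in 5. The log2 difference was 2.92 ± 0.49 with an edgeR adjusted p of 0.0156, which was 0.15 without dysentery library 1 and 0.124 without dysentery library 2. DESeq2 gave adjusted p-values of 0.107 for Thbs1 and 0.131 for Ccn1.

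Ccn2 had 153 and 163 CPM in acupuncture endothelial cells and 83.9 and 94.4 CPM in dysentery endothelial cells. The groups did not overlap, but the log2 difference of 0.72 ± 0.20 had an edgeR adjusted p of 0.13. Here Ccn1 and Ccn2 kept their ratio, with 2.38 and 2.46 Ccn1 UMIs per Ccn2 UMI with acupuncture and 2.39 and 1.98 without. The difference in change between the gates was tested by the interaction term, for which 1.17% of 7067 genes were called, 0.439% higher and 0.736% lower, and 1 of the 8 members tested, Ccn2. For that gene it was 1.60 ± 0.30, endothelial minus stromal, with an edgeR adjusted p of 0.00586. It stayed under 0.05 without any 1 library, and DESeq2 gave an adjusted p of 0.437. The edgeR adjusted p was 0.227 with 1 marker fewer in each gate and 0.0681 with a mural gate of 2 markers in the joint fit. For Ccn1 it was -1.31 ± 0.35 with an edgeR adjusted p of 0.0719, and for Thbs1 2.31 ± 0.65 with an edgeR adjusted p of 0.0997. Of 18 genes of the wider YAP/TEAD list tested for this term, 1 was called higher, Ccn2, and 1 lower, Gadd45a. The Gadd45a value was -2.63 ± 0.35 with an edgeR adjusted p of 2.6e-04. Of 15 early response genes, 0 were called higher and 3 lower.

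**Figure D3:**
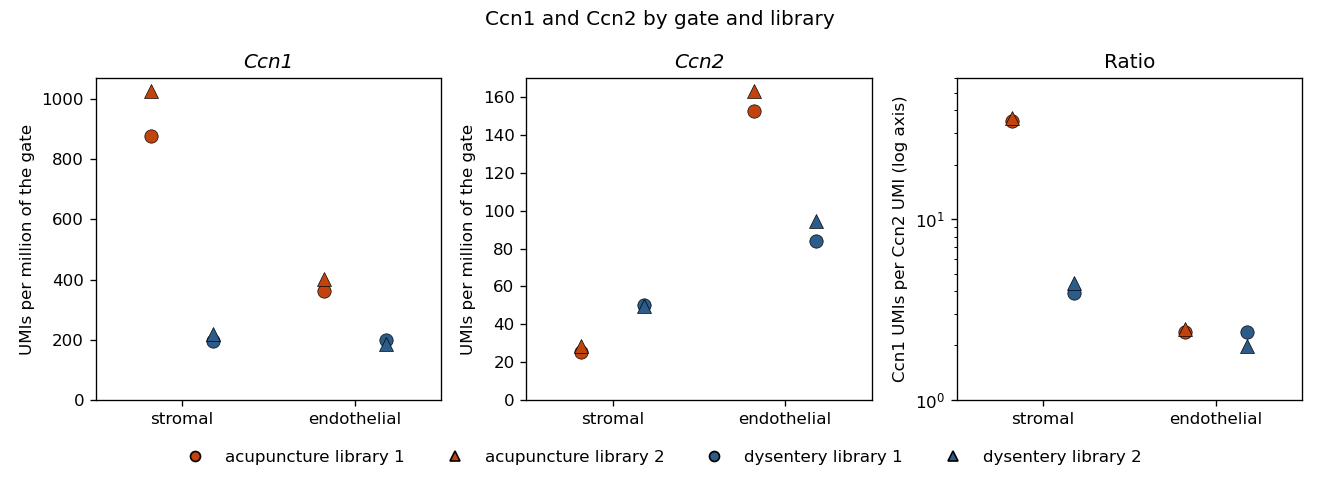
Ccn1 and Ccn2 levels in CPM (left and middle, linear axes from 0) and Ccn1 UMIs per Ccn2 UMI (right, log axis) in the stromal and endothelial gates. Each point is 1 library, acupuncture (orange-red) left of dysentery (blue). The stromal ratio is 34.7 and 36.2 with acupuncture and 3.89 and 4.46 without, and the endothelial ratio lies between 1.98 and 2.46 in all 4 libraries.

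The contractile members were sparse in endothelial cells. Tagln had 59.7 and 24.0 CPM with acupuncture and 2.70 and 5.35 CPM without, or 36 and 24 UMIs against 1 and 3. It too passed the filter through the acupuncture libraries, and its log2 difference of 3.03 ± 0.72 had an edgeR adjusted p of 0.0714. With doublets kept the difference was 0.63, and without acupuncture library 2 it was 3.63 with an edgeR adjusted p of 4.5e-06. Acta2 had 6 and 8 UMIs with acupuncture and 0 and 0 without, and Myl9 3 and 5 with acupuncture and 0 and 2 without, and neither passed the filter. With no filter the edgeR adjusted p was 0.0918 for Acta2 and 0.879 for Myl9. Tpm1 was at 0.47 ± 0.20 with an edgeR adjusted p of 0.281, and Piezo1 at 0.27 ± 0.25 with an edgeR adjusted p of 0.65. Of 12 YAP/TEAD targets tested 2 were called, Ccn1 and Thbs1, the latter tested only through its acupuncture counts. Of 19 contractile and actin genes 0 were called. Of 14 early response genes 1 was called, Egr1 at 0.97.

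The endothelial gate also differed in its makeup and depth. Cells had a median of 2686 and 3760.5 UMIs in the acupuncture libraries and 6840 and 6512.5 UMIs in the dysentery libraries. Dcn, the fibroblast matrix gene decorin, had 103 and 76.1 CPM in the acupuncture gate and 628 and 289 CPM in the dysentery gate. The mural marker list summed to 82.9 and 56.0 CPM with acupuncture and 21.6 and 44.5 CPM without, with Notch3 and Cspg4 at 0 in all 4 sums. That list includes Mcam, 8.34 log2 units higher in endothelial than stromal cells, so its sum is not specific to mural cells. The part of makeup and depth in the endothelial results was not tested.

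**Figure D4:**
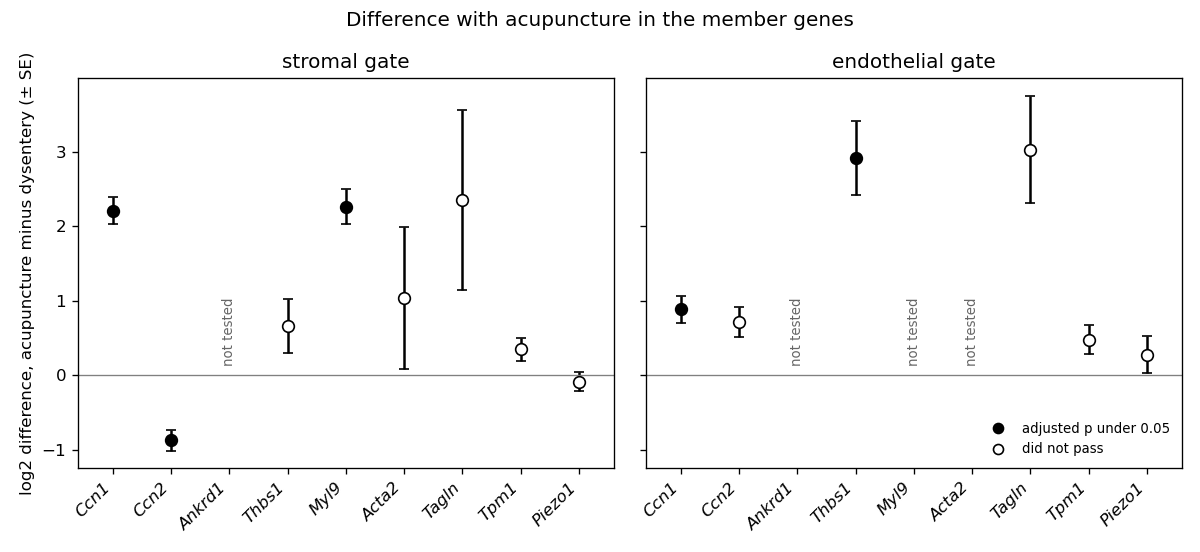
Log2 difference, acupuncture minus dysentery, of each member in the stromal gate (left) and the endothelial gate (right), with the standard error of the edgeR fit. Filled points have an adjusted p under 0.05. Ccn1 is filled in both gates, at 2.21 and 0.89, and Ccn2 is at -0.88 in the stromal gate and 0.72 in the endothelial gate.

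In mural cells the dysentery libraries had under 10 cells each, so the difference with acupuncture was not tested within this gate alone. Ccn1 had 1707 and 1166 CPM in acupuncture mural cells and 1346 and 694 CPM in dysentery mural cells. Thbs1 had 465 and 291 CPM in acupuncture mural cells and 500 and 335 CPM in dysentery mural cells. Both genes overlapped between the groups. In each dysentery library 1 cell held all of the mural Thbs1 UMIs, 13 and 14 of them. Ccn2 had 9 and 1 UMIs in acupuncture mural cells and 0 and 1 in dysentery mural cells, and Piezo1 4 and 1 with acupuncture and 0 and 1 without. With a mural gate of 2 markers the fit could be made on 4830 genes, of which 1.14% were called. Ccn1 was then 2.02 ± 0.27 higher with an edgeR adjusted p of 0.0115, and the other members tested did not pass. With 1 marker fewer in every gate, 1.36% of 4045 genes were called, and Ccn1 was at 2.54 ± 0.41 with an edgeR adjusted p of 0.0288. Genes called between mural and stromal cells numbered 545 with the mural gate of 2 markers and 236 with 1 marker fewer in every gate, against 2130 with the gates used elsewhere. The looser mural gates were thus less distinct from stromal cells, and their Ccn1 calls cannot be read as those of mural cells alone.

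In the joint fit, which set no minimum of cells, the interaction term of mural against stromal cells called 0.198% of 7067 genes, 0.0708% lower, and its median over all genes was 0.34. Myl9 was the member called, at -2.17 ± 0.38 with an edgeR adjusted p of 0.0126. Its value rests on 3 and 4 dysentery mural cells, and the edgeR adjusted p was 0.0668 without acupuncture library 2 and 0.476 without dysentery library 2.

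YAP/TEAD targets were set against contractile genes as the ratio of the summed CPM of the 4 targets to that of the 4 contractile members. In stromal cells the ratio was 8.35 and 13.6 with acupuncture and 3.21 and 4.79 without, with no overlap. Ccn1 alone made up 96.2% and 96.9% of the target sum with acupuncture and 77.7% and 80.7% without. Tpm1 made up 83.7% and 91.9% of the contractile sum with acupuncture and 95.0% and 96.7% without, so in stromal cells the ratio is close to Ccn1 over Tpm1. In endothelial cells the ratio was 1.97 and 2.66 with acupuncture and 2.26 and 1.88 without, and the groups overlapped. In mural cells it was 0.126 and 0.149 with acupuncture and 0.129 and 0.0424 without.

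Across the 24 sums of 6 gates in 4 libraries, which share libraries and depth, the contractile members followed each other. Pearson's r of log2(CPM + 1) was 0.99 between Acta2 and Tagln, 0.98 between Acta2 and Myl9 and 0.91 between Tpm1 and Myl9. Myh11 was among the 3 genes most like Acta2 and Myl9 out of 9464, and Tpm2 was the third for Tagln. Tpm1 was most like Mylk, the myosin light chain kinase, at 0.94. Thbs1 had an r of 0.93 with Tpm1 and 0.65 with Ccn1, so by cell type this YAP/TEAD target lay nearer to the contractile members. Ccn1 was most like Tril, Serpinh1 and Id4, at 0.96, 0.95 and 0.95, and had an r of 0.59 with Ccn2. Ccn2 was most like Mast4, S100a16 and Rab6a, Thbs1 most like Pawr, Shisa4 and Pacsin3, and Piezo1 most like Lap3, Map3k3 and Tmod3. The r of Piezo1 with the 4 contractile members lay between -0.42 and -0.27.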

How the data were processed

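Single-cell RNA of rat fascia was measured in 4 libraries. Per the labels' protocols, an enzyme mix of collagenase, elastase and DNase freed the cells, dead cells were depleted and 10x Genomics libraries were prepared. The deposited matrices hold raw UMI counts made by the authors. Cell Ranger 6.0.1 and STAR are named per the submitters' processing notes, which also list mRatBN7.2 and GRCh38.p13 without a role. Barcodes and features were deposited as other, non-numeric lists. Reads of near-identical gene copies cannot be checked in the matrices.

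Kept cells had 300 or more genes, 500 or more UMIs and no more than 20% of UMIs from 13 mitochondrial genes, and Scrublet (scanpy 1.11.5) removed the highest-scoring 0.8% per 1000 cells as doublets. A cell entered a gate if it met exactly 1 lineage test. Stromal cells had Pdgfra and at least 2 of 6 further genes, mural and endothelial cells at least 3 panel genes each, and immune and epithelial cells at least 2 each. Of the panels, Higd1b, Cldn5, Krt14 and Krt7 had no row under that symbol. UMIs were summed per library and gate, the library being the replicate, and tested with the edgeR 4.0.16 quasi-likelihood test (TMM, filterByExpr minimum count 10, Benjamini-Hochberg over all genes, threshold 0.05, at least 10 cells in every library). Gates were compared in 1 joint fit with library as a block and no minimum of cells. Alternatives were DESeq2 1.42.0, its size factors, no filter, each library left out, doublets kept, a mitochondrial limit of 10%, gates with 1 marker more or fewer, a replicate block and thinning to 1000 UMIs. Stromal subsets by Cd34 and a mural gate of 2 markers were added after seeing the data. Intervals (95%) cover counting error only. The code was tested on simulated counts.

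The members, gene lists and panels were chosen with earlier results of these data known. The text names all members, up to 4 called genes per list and gate with the largest log2 difference, and the 3 genes most like each member among genes at 10 CPM or more in at least 4 sums. Amotl2, Yap1, Wwtr1, Tead1, Srf, Dcn, Myh11, Notch3 and Cspg4 were named after their values were seen. The list symbols Amot, Myl12b, Rhob, Fhl1, Trpc6, Dusp1 and Myh1 had no row, and Actg1 stood on more than 1 row and was left out.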

Additional observations from a re-analysis of the deposited data

Results flagged for a closer look

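The change with acupuncture differed between gates for 2 members, by the interaction term of the edgeR fit. For Ccn2 the difference in change, endothelial minus stromal, was 1.60 on the log2 scale (edgeR adjusted p 0.00586), and DESeq2 gave an adjusted p of 0.437. Ccn2 averaged 158 ± 7.45 CPM with acupuncture and 89.1 ± 7.49 CPM without in endothelial cells, and 26.8 ± 2.19 CPM with acupuncture and 49.8 ± 0.466 CPM without in stromal cells (SD, n = 2 each). For Myl9 the difference in change, mural minus stromal, was -2.17 (edgeR adjusted p 0.0126). It rests on 3 and 4 dysentery mural cells, and the edgeR adjusted p was 0.0668 without acupuncture library 2 and 0.476 without dysentery library 2. Myl9 averaged 2121 ± 906 CPM with acupuncture and 2294 ± 1124 CPM without in mural cells, and 5.88 ± 0.982 CPM with acupuncture and 1.21 ± 0.0757 CPM without in stromal cells.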

How the results depend on the processing

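Over 668 values of members under the alternatives, 589 kept their direction and side of the threshold or moved by less than the spread, 31 lost the call, 18 gained it, 22 changed sign and 8 moved. The 8 that moved are shares of cells without thinning. The cause of these changes was not tested. The stromal Ccn1 and Myl9 calls held under all alternatives run. Limits include 2 libraries a group, a treatment field that names the opposite group, 3 to 4 dysentery mural cells and under 100 endothelial cells in each dysentery library.

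Stromal genes called were 834 by DESeq2, 597 with no filter and 159 to 469 leaving out 1 library each. Endothelial genes called were 49 by DESeq2, 30 with doublets kept, 315 with no filter and 4 to 227 leaving out 1 library each, lowest without dysentery library 1 (4) and dysentery library 2 (16). With no filter, 5230 genes differed between endothelial and stromal cells. Genes differing between mural and stromal cells were 236 with 1 marker fewer and 545 with a mural gate of 2 markers, chosen after seeing the data. Genes of unequal change, endothelial against stromal, were 34 by DESeq2, 46 with doublets kept, 43 with 1 marker fewer and 165 with no filter. For mural against stromal they were 4 with doublets kept, 5 with 1 marker fewer, 34 with 1 marker more, 8 with a mitochondrial limit of 10%, 8 with a mural gate of 2 markers, 48 with no filter, 8 with size factors and 17 to 32 leaving out 1 library each.

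The labels tie no animal or day to the replicate numbers, and the correlation of replicate 1 minus 2 between groups was 0.197 in stromal and 0.0672 in endothelial cells. With the replicate block, 522 stromal and 467 endothelial genes were called, and Ccn2 (edgeR adjusted p 0.0191) and Tagln (3.0e-05) were called higher in endothelial cells. The difference in the mural gate could not be fitted under the alternatives that left a library under 10 cells.

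Sign changes were these. In the stromal gate, leaving out 1 library each gave -0.78 (without acupuncture replicate 1) to 3.27 for Tagln and -0.18 to 0.013 (without dysentery replicate 1) for Piezo1. Between mural and stromal cells, Ccn2 was at 1.035 with 1 marker fewer and 1.64 with a mural gate of 2 markers. Between endothelial and stromal cells, Myl9 was at 0.94 with doublets kept, 0.80 with 1 marker more and -0.45 to 0.11 (without acupuncture replicate 1) leaving out 1 library each. For the change in endothelial minus stromal cells, Acta2 was at -1.75 and Tagln at -1.39 with doublets kept, Myl9 at 0.018 with 1 marker more and between -1.75 and 5.92 (without dysentery replicate 2) leaving out 1 library each, and Tpm1 between -0.15 (without dysentery replicate 1) and 0.46. For the change in mural minus stromal cells, 1 marker fewer gave 0.35 for Ccn1, -0.46 for Ccn2, 1.59 for Tagln, 0.51 for Thbs1 and 1.44 for Tpm1. There a mural gate of 2 markers gave 0.30 for Thbs1 and 0.41 for Tpm1, and leaving out 1 library each gave -3.56 to 0.19 for Acta2, -0.73 to 0.61 for Tpm1 (both highest without dysentery replicate 2) and -0.077 (without acupuncture replicate 1) to 10.5 for Piezo1.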
